A study of Mus musculus with 8 samples.

Results

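The 43 genes described here encode the proteins that license, unwind and copy DNA, the enzymes that supply its nucleotides, and the cyclins, kinases and E2F transcription factors of the passage from G1 into S phase. They were taken by name from a deposited table of 23038 mouse genes, and all 43 were found in it; the rule that defines them is their role and uses no measured value. RNA was sequenced from CAD cells (Cath.a differentiated), a mouse catecholaminergic neuronal line grown undifferentiated in 8% fetal bovine serum. The 4 control libraries are titled wild type, while their genotype label reads "Control KO", and what those cells received is not stated; the 4 knockout libraries came from cells in which the gene for profilin 1, an actin-binding protein, was targeted with CRISPR/Cas9 and guide RNAs. Each condition has 4 biological replicates by its labels, and their clones or cultures of origin are not described; p-values therefore measure the spread between these samples only, which may be technical.

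Before S phase, the origin recognition complex with Cdc6 and Cdt1 loads the MCM2-7 ring onto DNA as an inactive helicase. Cyclin-dependent kinases and the Cdc7 kinase then recruit Cdc45 and GINS, which turn the ring into the active helicase, and polymerases follow, held on DNA by the PCNA clamp. D-type and E-type cyclins with their kinases release E2F factors from the retinoblastoma proteins, and E2F factors activate many of the genes listed here, so that in cycling cells these transcripts rise around the G1/S boundary.

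By the estimate described under the processing, the libraries hold 26.2 to 34.5 M reads. Pfn1 transcript fell from 423 ± 16.4 RPKM (reads scaled to gene length and to the total of the library) in control cells to 139 ± 10.8 RPKM in knockout cells (SD, n = 4 each; limma adjusted p = 3.7e-09). Control library 4 and knockout library 1 stood furthest from the other libraries of their groups, at a median absolute log2 difference of 0.099 and 0.101 against 0.043 to 0.075 for the other 6. Of 12 catecholaminergic markers 10 reached 1 RPKM in control cells, among them Phox2a at 144 and Hand2 at 208 RPKM, while Ddc stood at 0.339 RPKM and Slc6a2 was listed at 0 in all 8 libraries. The 12 together summed to 589 to 659 RPKM in control and 771 to 831 RPKM in knockout libraries, and Chgb, at 162 and 347 RPKM, had by far the largest difference in level among them. Of the 10 tested, Chgb and Slc18a1 were called higher and Dbh, Th, Phox2a and Gata3 lower, with means in control and knockout cells of 31.7 and 10.4 RPKM for Dbh, 2.25 and 0.773 RPKM for Th, and 144 and 130.3 RPKM for Phox2a. Markers of other cell types summed, in control and knockout libraries, to 2.8 to 3.55 and 2.73 to 3.35 RPKM for 6 fibroblast genes, 0.726 to 1.14 and 1.35 to 1.47 RPKM for 6 glial genes and 0.221 to 0.455 and 0.2 to 0.608 RPKM for 5 immune genes, with Col3a1, Aqp4 and Cd3e listed at 0. Of 15 mitotic genes 11 (73.3%) were called lower in knockout cells and 0 higher, against 15.5% and 30.4% of all 11465 genes tested. Their summed level was 952 to 1030 RPKM in control and 750 to 874 RPKM in knockout libraries. The part of these differences in the results below was not tested. In whole-culture RNA, fewer cells in S phase and less transcript in each of them cannot be told apart.

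Transcripts of the replication machinery were abundant in both groups, and most kept near their control level. Of the 43 genes, 41 reached a mean of 1 RPKM in at least 1 group and were tested; 8 rose and 5 fell upon knockout (limma on log2(RPKM + 1), Benjamini-Hochberg adjusted p under 0.05 over all genes tested). These are 31.7% of the 41 tested genes, against 45.9% of all 11465 genes tested; by direction, 19.5% were higher against 30.4%, and 12.2% lower against 15.5%. The genes that rose were Ccne1, Ccnd1, E2f1, Pcna, Gins2, Rrm2, Rfc5 and Ccne2, by 1.18-fold to 1.53-fold in mean RPKM. Those that fell were Rrm1, Prim1, Lig1, Pola1 and Tk1, to between 87.6% and 90.9% of control. The median log2 fold change of the 41 genes was 0.01 and that of all tested genes 0.06, and the median absolute log2 fold change was 0.095 against 0.147. The 2 groups of 4 libraries did not overlap for 14 of the 41 genes, 34.1% against 41.4% of all tested genes.

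The lower side of this count depends on how libraries are scaled. After median-of-ratios scaling, which centres the median gene, 8 genes were still called higher (19.5% against 24.0% of all tested genes) and 14 lower (34.1% against 23.8%). The 5 genes called lower at first stayed so and 9 joined them: Mcm4, Mcm7, Orc2, Cdc6, Gmnn, Rfc3, Tyms, Cdk4 and Cdk2. Without the 2 libraries that stood furthest apart, 12 genes were higher and 6 lower. Over all tested genes, 4415 of 11472 were then higher and 1572 lower, against 3489 and 1772 of 11465 with all libraries. Without control library 4 alone 14 were higher, and over all tested genes 3941 of 11455. Without control library 3 or knockout library 4 alone 3 were lower, and over all tested genes 1627 and 1510. By the authors' deposited table, adjusted p was under 0.05 for 14 of the 43 genes, 9 higher and 5 lower. Over all 23038 of its genes 18.4% were higher and 8.73% lower. These include 4907 genes at 0 in every library, so the shares cannot be set beside those of tested genes above. The authors' table adds Mcm10 (higher) and Ccnd2 (lower) to the calls made here and leaves out Tk1 (adjusted p = 0.0549).

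**Figure D1:**
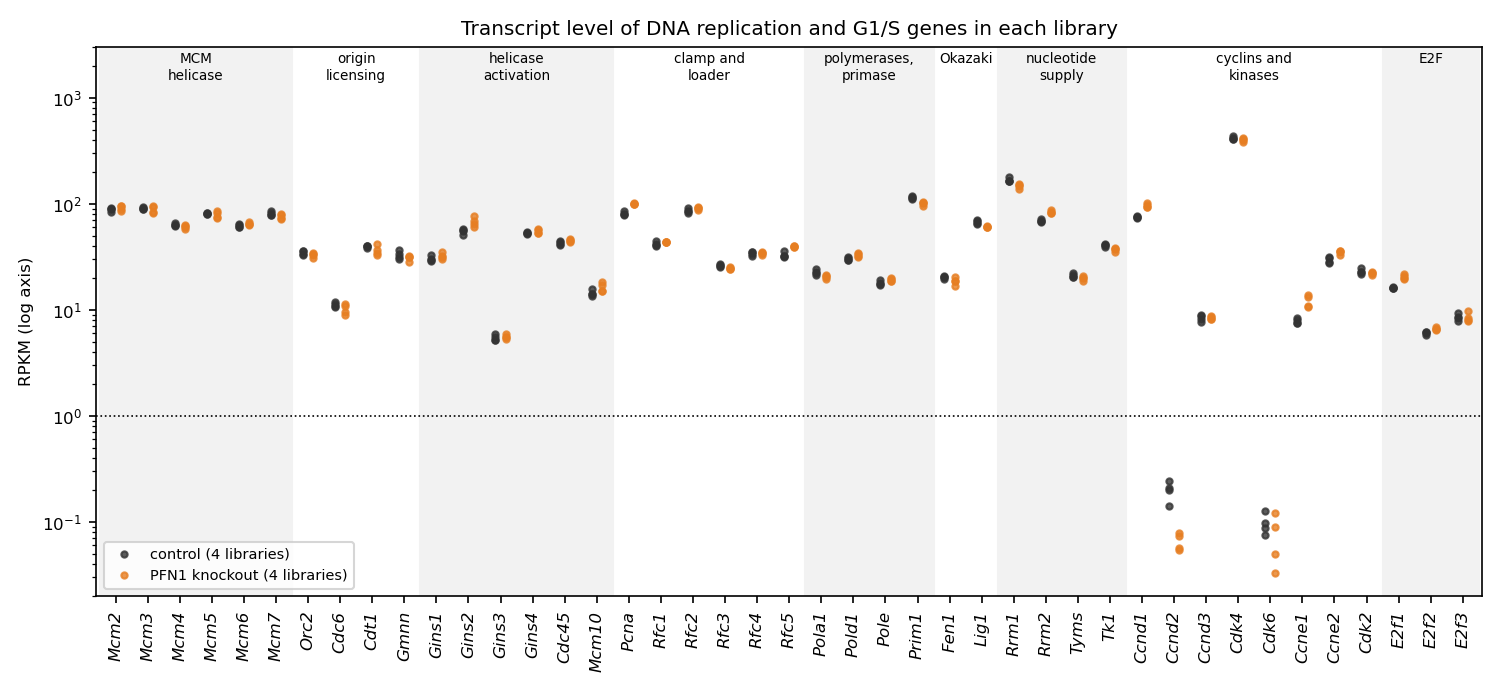
RPKM of the 43 genes (log axis) in each of 4 control (dark points) and 4 PFN1 knockout libraries (orange points), grouped by role, with a dotted line at 1 RPKM. Control means ran from 0.0967 RPKM for Cdk6 to 417 RPKM for Cdk4, and Ccnd2 and Cdk6 are the 2 genes below the line.

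**Figure D2:**
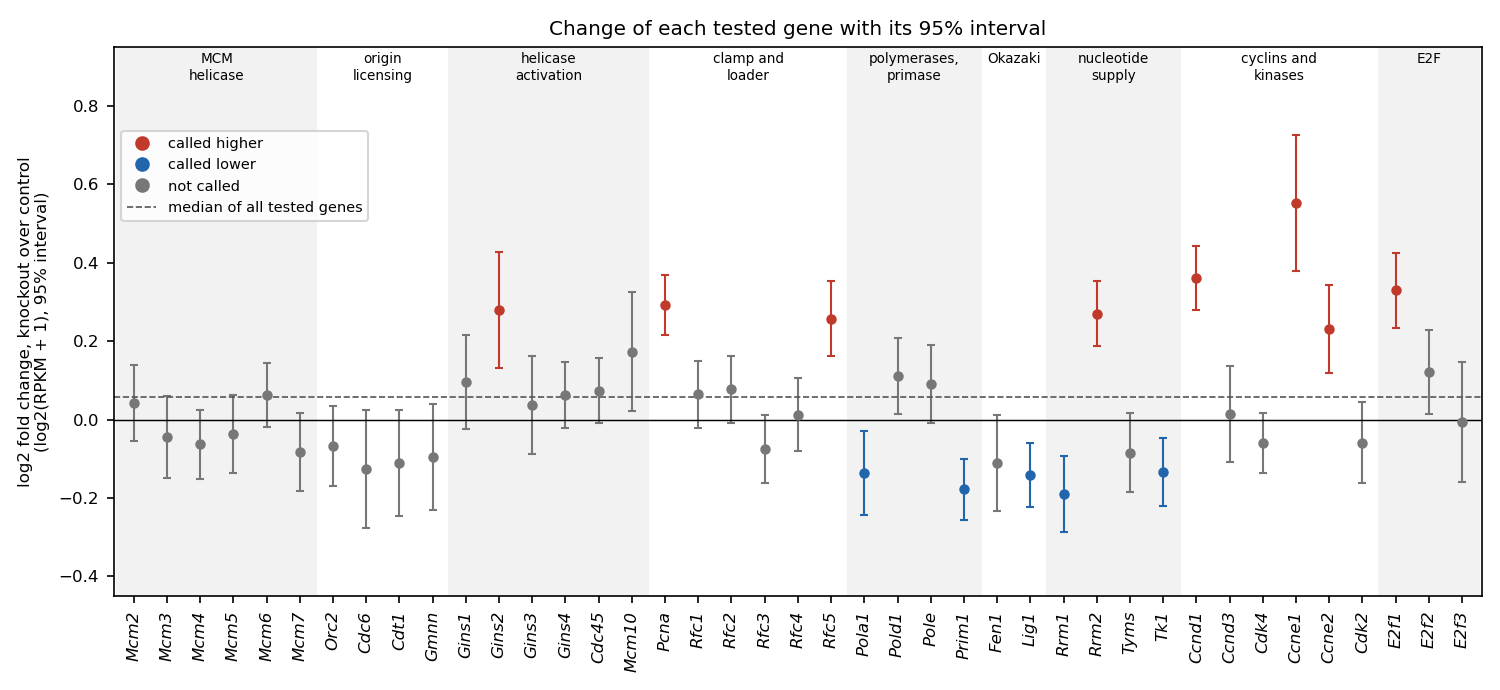
Log2 fold change (knockout over control, on the log2(RPKM + 1) scale) of the 41 tested genes, with 95% intervals from the limma fit; the dashed line is the median of all tested genes, 0.06. The 8 genes called higher (red) reach 0.55 at Ccne1, and the 5 called lower (blue) reach -0.19 at Rrm1.

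The MCM helicase genes had closely similar levels and none passed the test. The proteins form a ring with 1 copy of each subunit, and control means ran from 61.8 ± 1.89 RPKM for Mcm6 to 90.5 ± 1.3 RPKM for Mcm3 (SD, n = 4), a range of 1.46-fold. The order in control cells was Mcm3, Mcm2, Mcm5, Mcm7, Mcm4 and Mcm6; Mcm3 and Mcm2, Mcm5 and Mcm7, and Mcm4 and Mcm6 differed by less than the SD of at least 1 of each pair. The largest change was that of Mcm7, with 77.7, 77.8, 85.1 and 81.9 RPKM in control libraries 1 to 4 and 78.8, 73.4, 72.4 and 79.9 RPKM in knockout libraries 1 to 4. These values overlap, and the log2 fold change of -0.08 (SE 0.045) did not pass (adjusted p = 0.153). The 95% intervals of the 6 log2 fold changes lay between -0.18 and 0.14. Within the knockout group, library 2 was the lowest for 5 of the 6 genes. Mcm3 stood at 92.5, 81.9, 83.0 and 94.1 RPKM and Mcm5 at 84.97, 73.6, 75.5 and 81.2 RPKM in knockout libraries 1 to 4. Averaged over the 6 genes as log2 distance from each gene's mean, knockout libraries 1 to 4 lay at 0.052, -0.087, -0.052 and 0.047, and the control libraries between -0.011 and 0.025. After median-of-ratios scaling Mcm4 and Mcm7 were called lower, at log2 fold changes of -0.12 (adjusted p = 0.0161) and -0.14 (adjusted p = 0.0301).

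E2F factors are known to bind short GC-rich sites that follow a run of T. The RefSeq promoter windows on GRCm38.p6, from 250 bases before to 50 bases after a transcription start, were searched on both strands for the 4 octamers TTTGGCGC, TTTGCCGC, TTTCGCGC and TTTCCCGC. Such a window was on file for 33 of the 43 genes, and at least 1 octamer was found in a window of 14 of them (42.4%), against 5.09% of the tested genes with a window and 2.6% of all 27025 genes with one. By role, 4 of 5 MCM genes held one and 0 of 4 genes of nucleotide supply; of the genes called higher 0 of 5 with a window held one, of those called lower 2 of 5, and of those not called 12 of 22 (54.5%). Ccnd1, Gins2 and Ccne2, also called higher, are among the genes with no window on file. A match is a description of the letters and not a site, and its absence says only that these letters are not in the window. Windows follow the listed transcription starts, and whether these are the starts used in CAD cells was not tested. With so few genes per call, the split by call carries no conclusion. The 4 MCM windows with a match, shown because the motif was most frequent in that complex, and that of Pola1, one of the genes that fell, follow 5′ to 3′ on the gene's strand, with the octamers on either strand in capitals. They lie at chr1:20820263-20820562 (Mcm3, minus strand), chr8:75109259-75109558 (Mcm5, plus), chr1:128359656-128359955 (Mcm6, minus), chr5:138171834-138172133 (Mcm7, minus) and chrX:93632106-93632405 (Pola1, minus).
Mcm3: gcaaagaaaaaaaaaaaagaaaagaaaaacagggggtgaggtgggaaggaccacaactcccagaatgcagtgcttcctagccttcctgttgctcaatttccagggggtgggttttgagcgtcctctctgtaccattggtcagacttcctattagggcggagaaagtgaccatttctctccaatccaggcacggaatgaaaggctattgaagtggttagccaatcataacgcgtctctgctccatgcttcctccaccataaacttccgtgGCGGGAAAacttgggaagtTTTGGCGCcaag
Mcm5: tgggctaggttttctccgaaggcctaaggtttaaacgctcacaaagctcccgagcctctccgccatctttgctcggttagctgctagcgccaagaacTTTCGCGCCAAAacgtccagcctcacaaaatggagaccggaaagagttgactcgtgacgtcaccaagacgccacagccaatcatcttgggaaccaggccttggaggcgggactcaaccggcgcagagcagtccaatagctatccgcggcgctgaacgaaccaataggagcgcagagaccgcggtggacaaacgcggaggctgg
Mcm6: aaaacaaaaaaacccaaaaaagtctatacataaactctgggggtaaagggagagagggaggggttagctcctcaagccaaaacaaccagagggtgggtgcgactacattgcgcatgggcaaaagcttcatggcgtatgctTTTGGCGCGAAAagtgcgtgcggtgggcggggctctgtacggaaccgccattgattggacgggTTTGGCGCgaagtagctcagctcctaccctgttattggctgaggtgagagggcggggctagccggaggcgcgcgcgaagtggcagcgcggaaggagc
Mcm7: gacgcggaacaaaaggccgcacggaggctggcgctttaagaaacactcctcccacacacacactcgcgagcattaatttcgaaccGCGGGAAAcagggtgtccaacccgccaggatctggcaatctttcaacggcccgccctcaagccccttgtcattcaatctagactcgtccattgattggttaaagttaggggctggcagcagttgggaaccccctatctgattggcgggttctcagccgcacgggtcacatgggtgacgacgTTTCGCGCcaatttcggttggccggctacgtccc
Pola1: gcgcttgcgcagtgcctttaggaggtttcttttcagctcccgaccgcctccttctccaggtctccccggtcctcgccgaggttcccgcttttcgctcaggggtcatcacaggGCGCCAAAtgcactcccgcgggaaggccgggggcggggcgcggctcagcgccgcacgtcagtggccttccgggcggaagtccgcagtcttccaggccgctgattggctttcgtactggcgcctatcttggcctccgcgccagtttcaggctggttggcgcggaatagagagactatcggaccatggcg
In the Mcm5 window 2 octamers on opposite strands overlap in 1 run of capitals, and Mcm6 has such a pair and a further octamer nearer the start. Counted from the transcription start at 0, the first octamer begins at position 19 in Mcm3, -153 in Mcm5, -110 in Mcm6, -165 in Mcm7 and -138 in Pola1.

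Among the origin licensing genes, Orc2 (a subunit of the origin recognition complex), Cdc6 and Cdt1 (which load the MCM ring) and Gmnn (geminin, the inhibitor of Cdt1), all 4 means were lower in knockout cells and none passed the test. Cdc6 had the largest change, with 10.7, 10.7, 11.2 and 11.7 RPKM in the control libraries and 11.2, 8.88, 9.58 and 10.8 RPKM in the knockout libraries. Knockout libraries 2 and 3 lay below all controls and the other 2 within their range (log2 fold change -0.13, SE 0.069, adjusted p = 0.155). Cdt1 stood at 38.2 to 39.9 RPKM in control libraries and 41.7, 32.8, 34.7 and 36.8 RPKM in knockout libraries 1 to 4, so that library 1 lay above and the other 3 below all controls (log2 fold change -0.11, adjusted p = 0.166). Orc2 stood at 34.5 ± 1.65 and 32.9 ± 1.44 RPKM and Gmnn at 33.0 ± 2.73 and 30.8 ± 1.88 RPKM in control and knockout cells (adjusted p = 0.26 and 0.229). After median-of-ratios scaling Orc2, Cdc6 and Gmnn were called lower (adjusted p = 0.0156, 0.0463 and 0.0437). Without knockout library 1 the adjusted p was 0.00808 for Cdt1 and 0.0493 for Cdc6, both lower. The level of Cdt1 relative to its inhibitor Gmnn was 1.2 ± 0.117 in controls against 1.19 ± 0.134 upon knockout (SD, n = 4).

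In RPKM as deposited, the genes that turn the loaded ring into a working helicase had higher means in knockout cells throughout, and Gins2 alone passed the test. GINS is a complex with 1 copy each of 4 subunits, whose transcripts stood in control cells at 55.1 ± 2.94 RPKM (Gins2), 52.7 ± 1.04 RPKM (Gins4), 30.2 ± 1.89 RPKM (Gins1) and 5.42 ± 0.337 RPKM (Gins3), a range of 10.2-fold within the helicase activation genes. Gins2 had 57.0, 51.1, 54.8 and 57.6 RPKM in control libraries 1 to 4 and 76.7, 59.8, 64.2 and 68.3 RPKM in knockout libraries 1 to 4. The groups did not overlap, and knockout library 1 was the highest (1.22-fold, log2 fold change 0.28, SE 0.068, adjusted p = 0.00577). For Cdc45, the helicase cofactor, the levels were 42.7 ± 1.28 and 44.95 ± 1.1 RPKM (adjusted p = 0.128). Gins4 stood at 55.1 ± 2.26, Gins1 at 32.4 ± 2.03 and Gins3 at 5.58 ± 0.242 RPKM in knockout cells (adjusted p = 0.204, 0.176 and 0.619). The median log2 fold change of all tested genes was also above 0, at 0.06. After median-of-ratios scaling the median of the 6 helicase activation genes was 0.02, and Gins3 stood at -0.02. With the median shift of each chromosome removed in each library, Gins3, Gins4 and Cdc45 had log2 fold changes of -0.04, -0.02 and -0.02.

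Mcm10, a factor of helicase activation that is no part of the ring, stood at 14.0, 14.0, 13.6 and 15.7 RPKM in control libraries and 18.2, 14.9, 14.9 and 17.1 RPKM in knockout libraries. Control library 4 lay within the knockout range, and the log2 fold change of 0.17 (SE 0.069) had an adjusted p of 0.0582; the 95% interval ran from 0.02 to 0.32. Without control library 4 the adjusted p was 0.0248 for Mcm10 and 0.0463 for Gins1, both higher, and it was also under 0.05 for Mcm10 without knockout library 2 (0.0332) or knockout library 3 (0.0357). Gins1 and Mcm10 lie on chromosome 2, as do Pcna and E2f1. Of the 947 tested genes of that chromosome 68.5% were called higher, with a median log2 fold change of 0.26 against 0.04 for genes of the other chromosomes. With the median shift of each chromosome removed in each library, Gins1 had a log2 fold change of -0.17 (adjusted p = 0.0117) and Mcm10 one of -0.09 (adjusted p = 0.284).

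Pcna, the sliding clamp that holds polymerases on DNA, rose in every knockout library. Its levels were 86.1, 79.1, 80.3 and 80.7 RPKM in control libraries 1 to 4 and 100.4, 98.9, 101 and 99.9 RPKM in knockout libraries 1 to 4. The groups did not overlap, and the knockout libraries lay close together with an SD of 0.802 RPKM (1.23-fold, log2 fold change 0.29, SE 0.035, adjusted p = 5.93e-05). With the median shift of chromosome 2 removed, the log2 fold change of Pcna was 0.03 (adjusted p = 0.618). RefSeq lists pseudogenes of Pcna, and its level is uncertain insofar as reads of such copies were counted with it.

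The clamp loader, RFC, has 5 subunits that place PCNA on DNA, and of these Rfc5 alone passed the test. Rfc5 had 32.2, 31.1, 32.4 and 35.5 RPKM in control libraries and 39.1, 39.6, 39.8 and 38.8 RPKM in knockout libraries. All 4 knockout libraries lay above control library 4, the highest control (1.2-fold, log2 fold change 0.26, SE 0.044, adjusted p = 0.000657). The large subunit Rfc1 stood at 41.6 ± 1.86 and 43.5 ± 0.396 RPKM, Rfc2 at 85.7 ± 3.88 and 90.4 ± 2.37 RPKM, and Rfc4 at 33.8 ± 1.37 and 34.1 ± 1.16 RPKM in control and knockout cells. Rfc3 had the lower mean in knockout cells, 24.8 ± 0.56 against 26.1 ± 0.765 RPKM, and was called lower after median-of-ratios scaling (log2 fold change -0.14, adjusted p = 0.00946). Rfc1 and Rfc2 were called higher without control library 4 (adjusted p = 0.0486 and 0.0323), and not after median-of-ratios scaling (adjusted p = 0.947 and 0.732). In control cells the order was Rfc2, Rfc1, Rfc4, Rfc5 and Rfc3, and Rfc4 and Rfc5 differed by less than their SDs.

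Of the 4 polymerase and primase genes Prim1 and Pola1 fell, and Pold1 and Pole did not pass. Prim1, the primase that starts each new strand with a short RNA, and Pola1, the catalytic subunit of polymerase alpha, which extends that primer, act as 1 complex. Prim1 had 117, 112, 110.1 and 116 RPKM in control libraries and 96.0, 102, 103 and 101 RPKM in knockout libraries. The groups did not overlap and knockout library 1 was the lowest (88.3% of control, log2 fold change -0.18, SE 0.036, adjusted p = 0.00196). Pola1 had 21.4, 22.5, 22.3 and 24.1 RPKM in control libraries and 19.4, 21.0, 21.4 and 20.2 RPKM in knockout libraries. Control library 1 and knockout library 3 nearly touched (90.6% of control, log2 fold change -0.14, SE 0.049, adjusted p = 0.04). The call of Pola1 was lost in 8 of 18 alternative settings. Its adjusted p was 0.131 without both control library 4 and knockout library 1, and 0.0522 with a constant prior variance. It was 0.084, 0.0657 and 0.0871 without control library 2, 3 or 4, and 0.0867 and 0.092 without knockout library 1 or 4; without knockout library 2 it was 0.05.

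The polymerases that copy most of the DNA had the higher mean in knockout cells and did not pass. Pold1, of the lagging-strand polymerase delta, stood at 30.3 ± 1.02 and 32.8 ± 1.46 RPKM (log2 fold change 0.11, 95% interval 0.02 to 0.21, adjusted p = 0.0568), and Pole, of the leading-strand polymerase epsilon, at 17.9 ± 0.809 and 19.1 ± 0.552 RPKM (adjusted p = 0.121). Pold1 was called higher without knockout library 2 (adjusted p = 0.0391) and Pole without control library 4 (adjusted p = 0.0407). Their log2 fold changes after median-of-ratios scaling were 0.05 and 0.03, and neither was called (adjusted p = 0.46 and 0.496). Within each library, where scaling cancels, the ratio of Prim1 to Pold1 was 3.76 ± 0.16 in control and 3.07 ± 0.223 in knockout cells, and that of Pola1 to Pole 1.26 ± 0.02 and 1.07 ± 0.0249 (SD, n = 4), with no overlap between the groups in either and no test.

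Lig1, the ligase that joins Okazaki fragments, fell, and Fen1, the nuclease that trims them, did not pass. Lig1 had 68.2, 64.1, 69.99 and 65.4 RPKM in control libraries and 60.8, 59.9, 59.9 and 61.6 RPKM in knockout libraries. The highest knockout library lay below the lowest control (90.5% of control, log2 fold change -0.14, SE 0.037, adjusted p = 0.00883). Fen1 had 20.2, 20.6, 21.0 and 19.5 RPKM and 20.5, 16.9, 18.9 and 18.8 RPKM. Knockout library 1 lay among the controls (adjusted p = 0.125), and without it Fen1 was called lower (adjusted p = 0.0287).

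Of the genes of nucleotide supply Rrm2 rose, and Rrm1 and Tk1 fell. Ribonucleotide reductase, which makes deoxyribonucleotides, is built from a large subunit, encoded by Rrm1, and a small subunit, encoded chiefly by Rrm2 and known to be the subunit whose amount changes through the cycle. Rrm1 had 164, 164, 162 and 178 RPKM in control libraries and 136, 151, 153 and 145 RPKM in knockout libraries. Every knockout library lay below every control (87.6% of control, log2 fold change -0.19, SE 0.044, adjusted p = 0.00453). Rrm2 had 68.0, 66.9, 68.1 and 71.9 RPKM in control libraries and 86.4, 81.1, 80.9 and 84.0 RPKM in knockout libraries. Here every knockout library lay above every control (1.21-fold, log2 fold change 0.27, SE 0.037, adjusted p = 0.00016). The ratio of Rrm2 to Rrm1 within a library was 0.414, 0.407, 0.42 and 0.404 in control libraries and 0.633, 0.536, 0.529 and 0.578 in knockout libraries, 1.38-fold higher in the mean. Both calls held in all 18 alternative settings.

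Tk1, thymidine kinase of the salvage pathway, fell from 40.4, 39.0, 42.0 and 41.1 RPKM to 37.4, 37.2, 37.9 and 35.3 RPKM. Its groups did not overlap (90.9% of control, log2 fold change -0.13, SE 0.04, adjusted p = 0.0161), and the adjusted p was 0.0504 without control library 3 and 0.0545 without knockout library 4. For Tyms, thymidylate synthase, the levels were 21.0 ± 0.719 and 19.8 ± 0.925 RPKM (adjusted p = 0.16), and it was called lower after median-of-ratios scaling (log2 fold change -0.14, adjusted p = 0.017).

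**Figure D3:**
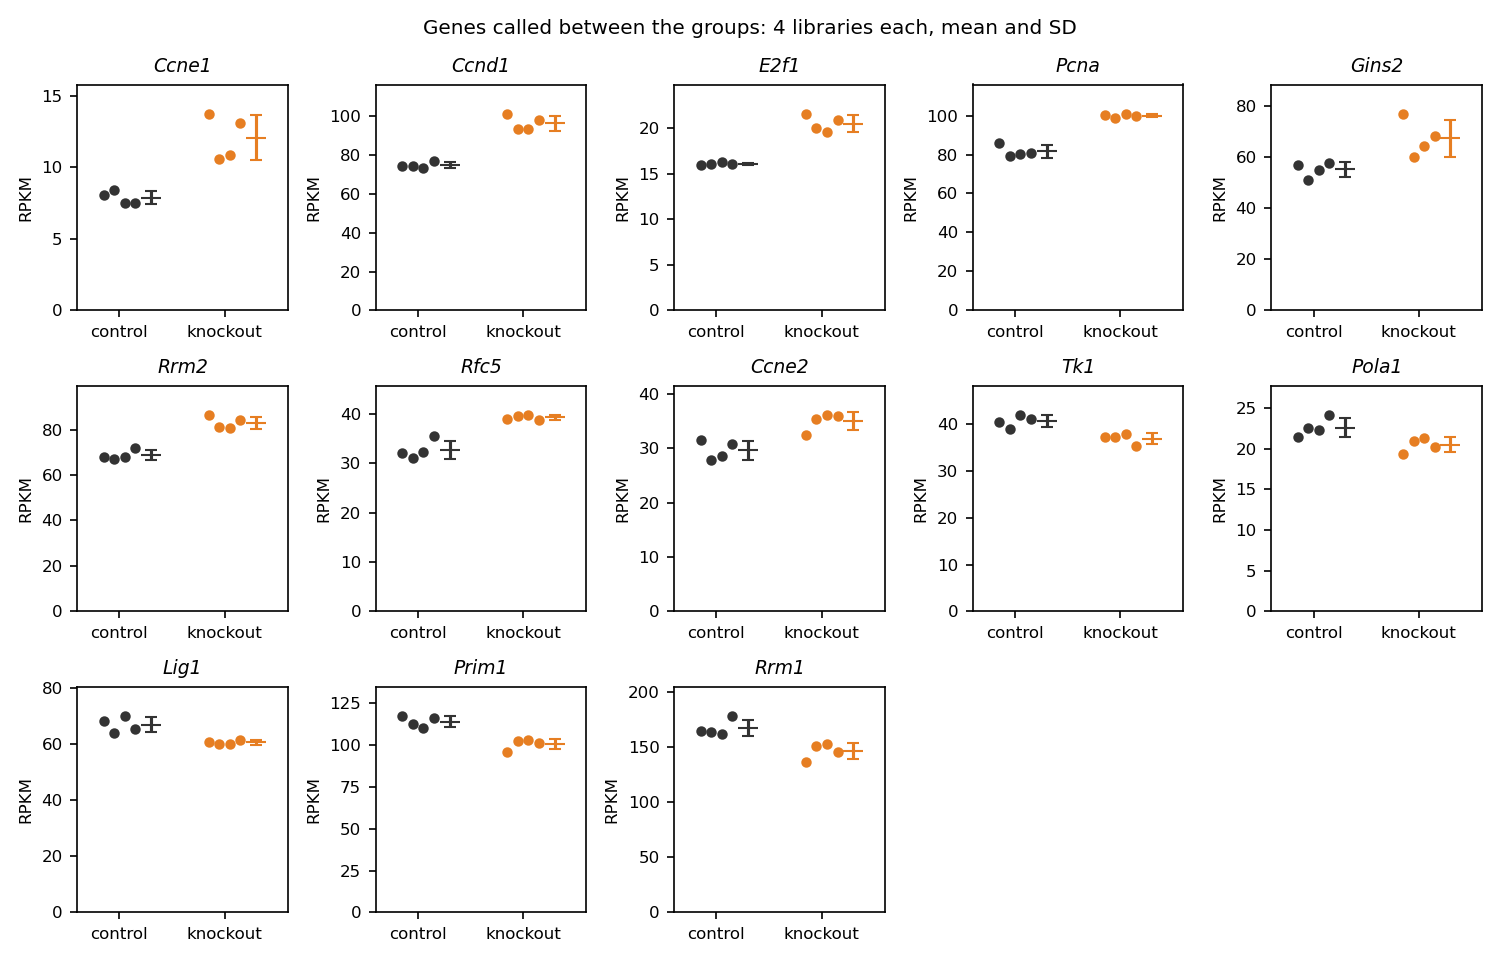
RPKM of the 13 called genes in 4 control and 4 knockout libraries (points in order of replicate number), with the mean and SD beside them and axes from 0. In each panel the 2 groups do not overlap; Ccne1 rose 1.53-fold and Rrm1 fell to 87.6% of control.

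Of the tested D-type and E-type cyclins Ccnd1, Ccne1 and Ccne2 rose, while Ccnd3 and the kinases Cdk4 and Cdk2 did not pass. Ccna2 (cyclin A2), of the wider list described below, was called lower (adjusted p = 0.0413). Its means were 115 ± 4.71 RPKM in control and 103 ± 9.36 RPKM in knockout cells, and the groups overlapped. Ccne1, cyclin E1, which activates Cdk2 at the G1/S boundary, had the largest change of the 41 tested genes. It had 8.05, 8.41, 7.53 and 7.51 RPKM in control libraries and 13.7, 10.6, 10.9 and 13.1 RPKM in knockout libraries. The lowest knockout library lay above the highest control, and knockout libraries 1 and 4 above the other 2 (1.53-fold, log2 fold change 0.55, SE 0.079, adjusted p = 0.000205). Ccne2, cyclin E2, had 31.5, 27.9, 28.5 and 30.7 RPKM and 32.5, 35.3, 36.1 and 36.0 RPKM. Here knockout library 1 was the lowest of its group and close to control library 1 (1.18-fold, log2 fold change 0.23, SE 0.051, adjusted p = 0.00334). Ccne2 was the more abundant of the pair in every library, at a ratio of Ccne1 to Ccne2 of 0.267 ± 0.025 in control and 0.347 ± 0.0587 in knockout cells. Their kinase Cdk2 stood at 23.1 ± 1.29 and 22.1 ± 0.6 RPKM (adjusted p = 0.33; called lower after median-of-ratios scaling, adjusted p = 0.0191).

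Of the D cyclins, which act with Cdk4 or Cdk6 earlier in G1, Ccnd1 was by far the most abundant and rose. It had 74.4, 74.6, 73.6 and 77.1 RPKM in control libraries and 101, 93.3, 93.5 and 98.1 RPKM in knockout libraries. All 4 knockout libraries lay far above the highest control, library 4 (1.29-fold, log2 fold change 0.36, SE 0.037, adjusted p = 1.84e-05). Ccnd3 stood at 8.35 ± 0.579 and 8.43 ± 0.263 RPKM (95% interval of the log2 fold change -0.11 to 0.14, adjusted p = 0.864).

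Ccnd2 and Cdk6 stayed below the filter of 1 RPKM. Ccnd2 had 0.201, 0.241, 0.143 and 0.207 RPKM in control libraries and 0.0563, 0.0741, 0.0791 and 0.054 RPKM in knockout libraries, with no overlap, on an estimated 11 to 56 reads per library. That is 33.3% of control; with no filter on low values its adjusted p was 0.00157, and the authors' deposited table gives a log2 fold change of -1.59. Cdk6 lay at 0.0967 ± 0.022 and 0.0734 ± 0.0394 RPKM, on an estimated 3.84 to 15.4 reads, where a difference of this size was not detectable. Cdk4 was the most abundant of all 43 transcripts, at 417 ± 11.7 and 400.3 ± 15.3 RPKM (log2 fold change -0.06, adjusted p = 0.187). After median-of-ratios scaling it was called lower (log2 fold change -0.12, adjusted p = 0.0192). The ratio of Ccnd1 to Cdk4 within a library was 0.18 ± 0.0026 in control and 0.241 ± 0.00624 in knockout cells.

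E2f1, E2f2 and E2f3 encode the activating E2F factors, and E2f1 rose. Its levels were 15.98, 16, 16.3 and 16.1 RPKM in control libraries and 21.5, 20.0, 19.5 and 20.9 RPKM in knockout libraries. The controls lay close together and below every knockout library (1.27-fold, log2 fold change 0.33, SE 0.043, adjusted p = 0.000111). E2f1 lies on chromosome 2, and with the shift of that chromosome removed its log2 fold change was 0.07 (adjusted p = 0.264). E2f2 had 6.13, 5.77, 6.02 and 6.17 RPKM and 6.84, 6.59, 6.64 and 6.49 RPKM. Its groups did not overlap, and the difference did not pass at the first setting (log2 fold change 0.12, SE 0.049, adjusted p = 0.0596). E2f2 was called in 2 of 18 alternative settings, among them without control library 4 (adjusted p = 0.0485). It was not called after median-of-ratios scaling (log2 fold change 0.07, adjusted p = 0.249). E2f3 stood at 8.54 ± 0.612 and 8.51 ± 0.852 RPKM (95% interval -0.16 to 0.15, adjusted p = 0.949).

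**Figure D4:**
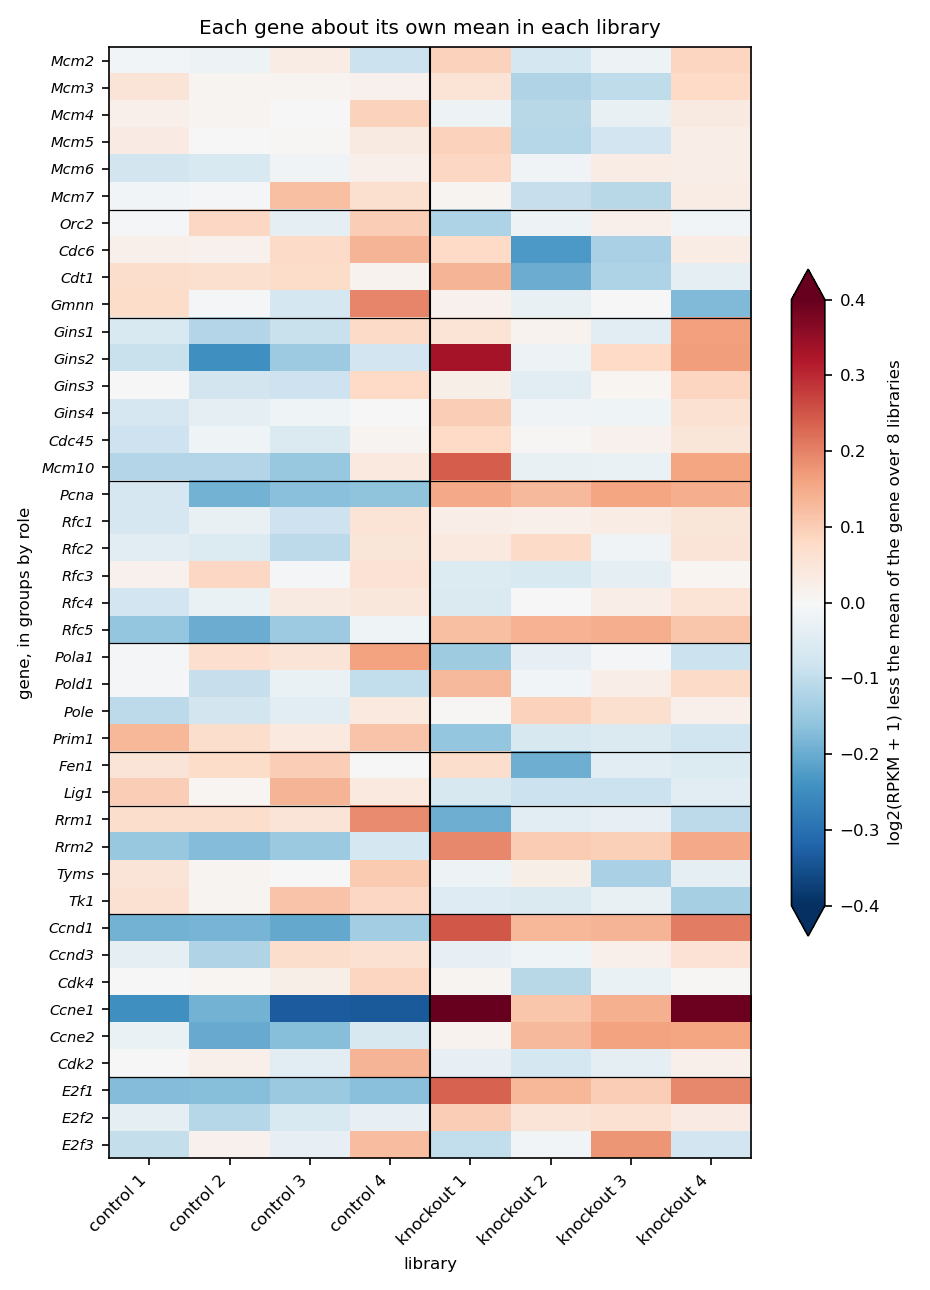
Log2(RPKM + 1) of the 41 tested genes in each library, less the mean of the gene over all 8 libraries (red above, blue below, colours saturating at 0.4), with lines between the groups by role. Ccne1, Ccnd1, E2f1, Pcna and Rrm2 are below their mean in all 4 control and above it in all 4 knockout libraries, Rrm1 and Prim1 the reverse, and each MCM gene ranges more widely among the knockout libraries than its group means differ.

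Within the groups, control library 4 was the highest of the 4 controls for 26 of the 41 genes, and knockout library 2 the lowest of its group for 20. Control library 4 also lay above the other controls over all tested genes, by a median log2 difference of 0.083. That of knockout library 2 from the others of its group was 0.014. Over the mitotic markers the mean log2 distance from each gene's mean was -0.265, -0.06, -0.04 and -0.191 in knockout libraries 1 to 4 and 0.096 to 0.197 in control libraries. Over the cyclins and kinases tested it was 0.111, 0.029, 0.067 and 0.139 in knockout libraries 1 to 4, and over the helicase activation genes 0.138, -0.015, 0.003 and 0.114. Knockout libraries 1 and 4 thus had the lowest mitotic and the highest cyclin and helicase activation values of their group. They were also the highest over the MCM, origin licensing and Okazaki fragment genes. The clamp and loader, polymerase, nucleotide supply and E2F genes did not follow this order. The part of these library differences in the comparison was not tested.

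Of the 9 within-library ratios computed, all chosen after the values were seen and given without a test, 7 did not overlap between the groups. Besides those above these were Ccne1 to Cdk2, at 0.342 ± 0.0286 in control and 0.545 ± 0.0634 in knockout cells, Gins2 to Gins4, at 1.05 ± 0.0573 and 1.22 ± 0.0847, and Pcna to Rfc1, at 1.97 ± 0.131 and 2.3 ± 0.0234. The 2 that overlapped were Ccne1 to Ccne2 and Cdt1 to Gmnn.

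**Figure D5:**
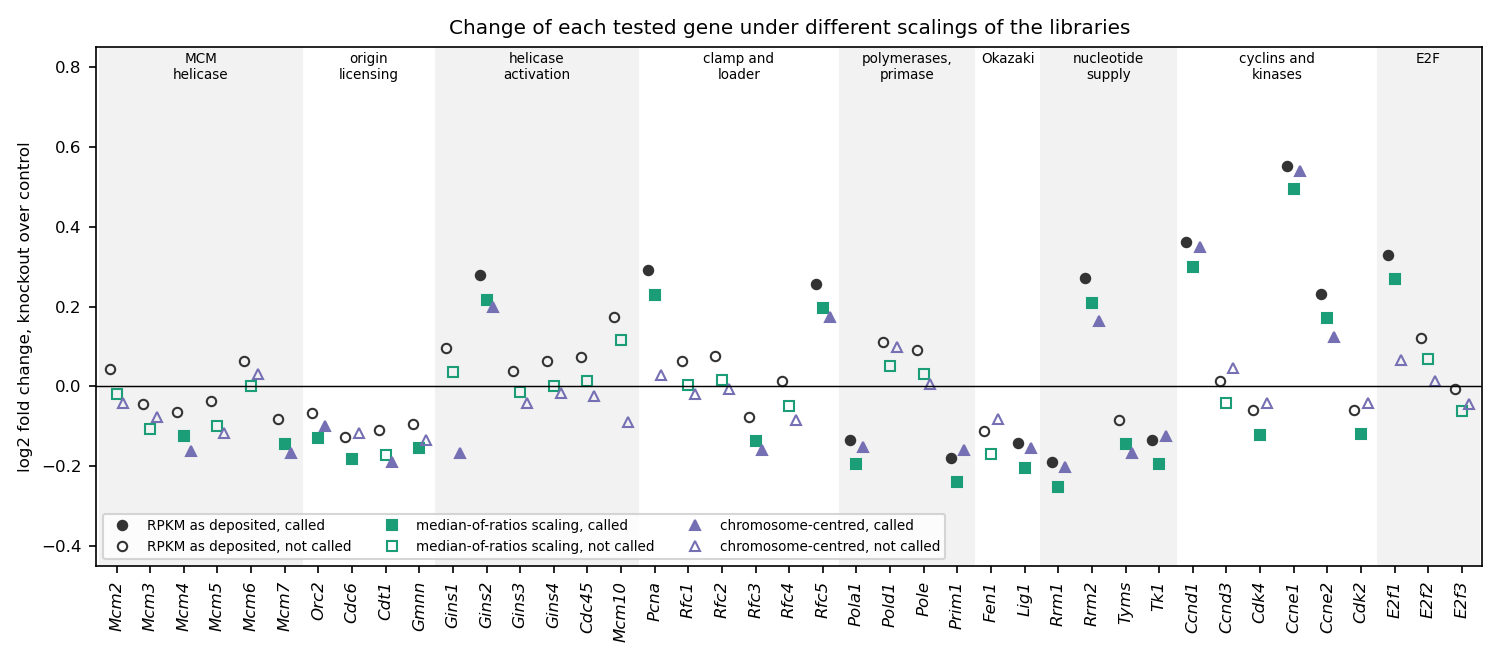
Log2 fold change of the 41 tested genes with RPKM as deposited (circles), after median-of-ratios scaling (squares) and with the median shift of each chromosome removed in each library (triangles); filled symbols are called. Gins2, Rfc5, Rrm2, Ccnd1, Ccne1 and Ccne2 are called higher in all 3, and Pcna and E2f1 lose the call in the last. The genes called lower number 5, 14 and 12, against 1772, 2723 and 2483 of all tested genes.

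A wider list of 77 other genes of replication and the G1/S passage was matched in full, and 76 were tested. The test called 19 of them higher and 14 lower (25% and 18.4%, against 30.4% and 15.5% of all tested genes), with a median log2 fold change of 0.04; after median-of-ratios scaling 14 were higher and 21 lower. Among the nucleotide enzymes 5 of 10 rose and 0 fell, against 3 and 0 after median-of-ratios scaling (30% higher, against 24.0% of all tested genes). The largest rise was that of Dctd, the deoxycytidylate deaminase, at 18.5 ± 0.627 in control and 25.1 ± 0.73 RPKM in knockout cells (adjusted p = 1.57e-05). Of 8 further polymerase and primase subunits 2 rose, among them Pold4, a small subunit of polymerase delta, from 5.19 ± 0.495 to 7.4 ± 0.429 RPKM (adjusted p = 0.000291). Of 16 fork proteins 3 rose and 4 fell, against 1 and 9 after median-of-ratios scaling (56.2% lower, against 23.8% of all tested genes). The largest fall as deposited was that of Rnaseh2b, a subunit of ribonuclease H2, from 25.6 ± 3.03 to 20.1 ± 1.33 RPKM (adjusted p = 0.00451). Of 8 genes of chromatin replication 1 rose and 2 fell (12.5% and 25%, against 30.4% and 15.5% of all tested genes).

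Among 13 genes of origin recognition and firing 3 rose and 4 fell (23.1% and 30.8%, against 30.4% and 15.5% of all tested genes). Dbf4, the activator of the Cdc7 kinase that fires origins, fell from 41.7 ± 2.89 to 34.1 ± 3.13 RPKM (adjusted p = 0.00452). Cdc7 itself, named after its value was seen, rose from 12.8 ± 2.13 to 16.5 ± 1.14 RPKM (adjusted p = 0.00874), with control library 4 at 15.9 RPKM inside the knockout range.

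Of the 21 tested G1/S regulators 5 rose and 4 fell (23.8% and 19.0%, against 30.4% and 15.5% of all tested genes). After median-of-ratios scaling 4 were higher and 6 lower (19.0% and 28.6%, against 24.0% and 23.8%). Of the 4 genes that encode inhibitors of Cdk4 and Cdk6, Cdkn2a and Cdkn2b rose, Cdkn2c fell, and Cdkn2d, at 13.2 ± 0.345 and 13.8 ± 1.03 RPKM, did not pass (adjusted p = 0.382). Values are per gene and do not separate the transcripts of a gene, so the product behind the Cdkn2a level is not known. Cdkn2a stood at 34.6 ± 1.24 RPKM in control and 51.8 ± 4.44 RPKM in knockout cells (adjusted p = 1.57e-05), and Cdkn2b at 0.695 ± 0.284 and 1.91 ± 0.445 RPKM (adjusted p = 0.000616), both higher. Cdkn2c was lower, at 21.7 ± 0.885 and 17.4 ± 0.209 RPKM (adjusted p = 0.00019). Cul4b, a scaffold of the ubiquitin ligase family that degrades Cdt1, fell from 60.1 ± 2.63 to 48.9 ± 5.11 RPKM (adjusted p = 0.004).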

How the data were processed

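Total RNA behind the 4 control and 4 PFN1 knockout libraries had, per the labels' protocols, its ribosomal RNA removed before stranded library preparation. In 1 table the authors deposited an RPKM value per gene and library, their group RPKM, their log2 fold change and mean log2 CPM, and the p-value and adjusted p-value of their comparison. The submitters' processing notes list edgeR, TopHat, Bowtie, RSEM and CASAVA, without saying which step each served, and a human genome, hg19; the table's gene numbers are those of mouse genes, and the alignment genome and the use of strand in counting are not given in the sources used here. Symbols and gene numbers were joined to RefSeq on GRCm38.p6, in which 22959 gene numbers were found, for chromosomes and promoter windows only.

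Depth was estimated from the table. RPKM values of genes seen in few libraries are whole multiples of 1 read (within 0.02 of a read for 98.9% of 1058 low genes, where the unit was chosen to fit), which gave relative depths. The authors' mean log2 CPM of genes at 0, read with an assumed prior count of 2, gave a mean of 30.6 M reads. The smallest estimate for a tested gene of this list was 327 reads in a library, for Gins3. RPKM values keep no composition correction, and RefSeq spans of Gins2, Lig1, Tk1, Ccnd1, Ccne2 and E2f1 among the called genes overlap that of another protein-coding gene, as do those of Mcm7, Cdc45, Rfc4, Fen1, Ccnd3, Cdk4 and Cdk2 among the others, so their levels are uncertain if strand was not used. RefSeq also lists pseudogenes of Pcna, Tyms and Ccnd3.

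The two-sided test was limma's (version 3.58.1, under R 4.3.3). It compared the groups on log2(RPKM + 1) values with no covariate and a prior variance that follows the mean level, for the 11465 genes whose mean reached 1 RPKM in either group. Fold changes on this scale understate changes of low genes; folds and percentages of control are ratios of mean RPKM. Promoter motifs, ratios and library means are descriptions with no test. Tested on simulated data with the spread of these genes, the fit recovered 70% of genes changed 1.25-fold and 4% of those changed 1.1-fold. In that simulation 50 of 11465 genes were changed at each fold, whereas 45.9% of all tested genes were called in the data. The adjusted threshold is stricter where fewer genes change, so these shares do not give the recovery in the data. Tk1, at 90.9% of control, was called. The genes, the lists and the alternatives were chosen with earlier results of these data known. Every gene of the list is accounted for, with values per library for called genes and, in roles with none called, for the gene with the largest change; Mcm3, Mcm5, Cdt1, Mcm10, Fen1, E2f2, Ccnd2 and the ratios were given per library or added after their values were seen. Of the wider list, up to 4 called genes per direction are named by largest change. Cdc7, Cdkn2d and Ccna2 were added after their values were seen.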

Additional observations from a re-analysis of the deposited data

Results flagged for a closer look

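In 86 sets of 4 libraries (43 genes in 2 groups), 3 had 1 library further from the others than the 95% limit of Dixon's test; chance gives about 1 in 20. Mcm3 stood at 92.4 RPKM in control library 1 and at 89.7 to 90.1 RPKM in the other controls. Mcm10 stood at 15.7 RPKM in control library 4 and at 13.6 to 14.0 RPKM in the other controls. Rrm1 stood at 178 RPKM in control library 4 and at 162 to 164 RPKM in the other controls.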

How the results depend on the processing

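The 18 alternatives changed the pseudocount, filter, scaling, prior variance, replicate block, chromosome shift or the libraries used. Genes called higher numbered 8 to 14 and lower 3 to 7 when 1 library was left out. Over all tested genes 2888 to 3941 were then higher and 1447 to 1657 lower, against 3489 and 1772 with all libraries. The 14 and the 3941 came without control library 4, and the 3 without control library 3 or knockout library 4. Of the wider list, 15 to 24 were higher and 9 to 13 lower, the 9 without control library 2. Genes called lower numbered 14 after median-of-ratios, 12 after upper-quartile scaling and 12 with chromosome shifts removed, against 5. Over all tested genes 2723, 2420 and 2483 were lower in these settings, against 1772. After median-of-ratios scaling 50.2% of calls over all genes were higher, against 66.3%. Without control library 4 and knockout library 1 together 12 genes of this list were higher, against 8, and 4415 of all tested genes, against 3489. The cause was not tested. Median-of-ratios scaling moved the median log2 fold change of all genes by -0.056.

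Among uncalled genes the log2 fold change reversed after median-of-ratios scaling for Mcm2 (-0.0187), Gins3 (-0.0152), Rfc4 (-0.0479) and Ccnd3 (-0.0426), and after upper-quartile scaling for Rfc4 (-0.029) and Ccnd3 (-0.0253). With chromosome shifts removed it reversed for Mcm2 (-0.0426), Gins1 (-0.168), Gins3 (-0.0423), Gins4 (-0.0168), Cdc45 (-0.0232), Mcm10 (-0.0902), Rfc1 (-0.0201), Rfc2 (-0.0074) and Rfc4 (-0.0844). Without control library 4 and knockout library 1 it reversed for Mcm2 (-0.0022) and E2f3 (0.0652). Leaving out 1 library gave -0.011 to 0.0341 for Rfc4, -0.0244 to 0.0394 for Ccnd3 and -0.0662 to 0.0333 for E2f3.

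Same-numbered libraries deviated from their group means with correlations of 0.176, 0.023, -0.192 and -0.084, so the numbers were not taken as pairs. With the replicate block 9 genes were higher and 5 lower, the added one being Mcm10 (adjusted p = 0.0353).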
